A study of Mus musculus with 12 samples.

Results

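Ileum RNA from mice dosed with STP1002 at 10 mg/kg was set against ileum RNA from mice dosed at 5 mg/kg, with 3 mice on each side. The libraries were chosen by their titles, and they are 6 of the 12 in the series. All 780 gene rows of the deposited table entered the comparison, and the spiked positive and negative control rows did not. STP1002 was given by mouth once daily for 28 days at both doses, so dose is the only labelled difference between the groups. Of the remaining 6 libraries, 3 come from mice given DMSO by mouth once daily and 3 from mice given G007-LK at 30 mg/kg by intraperitoneal injection, 2 times a day. All 12 entered the fit, and the DMSO mice are quoted below as the control range. The 3 mice of a group were a random draw from 8. Strain, sex and age of the mice are not given in the sources used here, and the RNA is of whole ileum, with no cell type separated.

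STP1002 inhibits tankyrases, enzymes that mark axin for degradation. Axin is a scaffold of the complex that destroys beta-catenin, and blocking tankyrase in general stabilizes axin and dampens Wnt signalling. In the ileum Wnt signalling maintains the stem and progenitor cells at the base of the crypts, while the wall outside the epithelium holds immune cells, vessels and smooth muscle. The panel, a set of barcoded probes that are counted one molecule at a time without amplification, was designed for tumour signalling. It measures several Wnt receptors and targets, but Axin2, Lgr5 and Tnks are not analysed here.

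The unit of all values below is the deposited normalized signal, which is a count times 1 factor per library. A signal therefore compares the same gene between mice, not one gene with another. Summed counts ranged from 54392 to 96703 in the 10 mg/kg libraries and from 44180 to 67398 in the 5 mg/kg libraries. Background, set at the mean plus 2 SD of the negative control probes, lay between 14.2 and 40.0 in signal units (mean 27.1). By this measure 582 genes were above background in all 6 libraries and 62 in none. The epithelial markers Epcam and Cdh1 were above background in all 6. Mice of the same dose were farther apart than counting alone would place them. The chi-square between pairs, divided by its degrees of freedom, was 7.98 to 40.9 at 10 mg/kg and 10.4 to 21.7 at 5 mg/kg. In RNA of whole tissue, fewer cells of a type and less RNA per cell cannot be told apart.

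Most of the panel read higher at 10 mg/kg than at 5 mg/kg. The median log2 fold change over the 780 genes was 0.56, with 596 genes (76.4%) above 0 and 184 (23.6%) below. Each library's shift, the median log2 deviation of all genes from their mean over the 6 libraries, was -0.29, 0.92 and 0.30 in the 10 mg/kg mice, against -0.46, -0.22 and -0.13 in the 5 mg/kg mice. Replicate 2 at 10 mg/kg stood highest, and replicate 1 at 10 mg/kg lay below 2 of the 3 mice at 5 mg/kg, so the doses overlapped. The shift averaged 0.31 ± 0.60 at 10 mg/kg and -0.27 ± 0.17 at 5 mg/kg (SD, n = 3 each), a difference that an exact two-sided permutation test put at p = 0.3, where 0.10 is the smallest p that 3 against 3 allows. Without replicate 2 at 10 mg/kg the panel median was 0.26, and without replicate 1 at 10 mg/kg it was 0.84. When the libraries were rescaled by median ratios, the panel median was -0.00. A gene with a positive log2 fold change under 0.56 therefore reads lower at 10 mg/kg once the shift is removed. Each gene below is given with its log2 fold change and with its distance from the panel median. Control ranges are on the deposited scale, with no shift removed. Taken over all 12 libraries, the shift was -0.78, 0.13 and 0.14 in the control mice and -0.05, 1.07 and 0.52 at 10 mg/kg. At 5 mg/kg it was -0.25, 0.03 and 0.08.

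**Figure D1:**
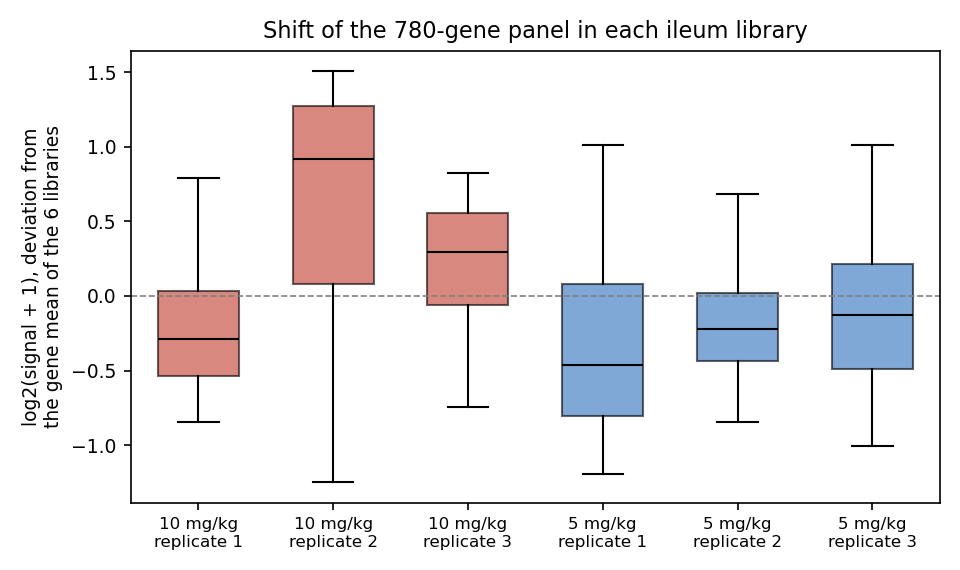
Deviation of log2(signal + 1) from each gene's mean over the 6 libraries (vertical axis), for the 780 genes in each STP1002 library (red, 10 mg/kg; blue, 5 mg/kg). Boxes span the quartiles with the median as a line and whiskers reach the 5th and 95th percentiles; the box of 10 mg/kg replicate 2 sits highest, with a median of 0.92, and that of 5 mg/kg replicate 1 lowest, at -0.46.

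The shift was not even along the range of signal. When the genes were cut into 5 bins of 156 by their geometric mean signal, a split made after the values were seen, the lowest bin had a median log2 fold change of -0.13. The 3 bins in the middle had medians of 0.76, 0.84 and 0.62, and the highest bin 0.30. Among the 20 genes with the highest signal, 17 had a log2 fold change below 0 and the median was -0.27. The part of this slope in any single gene's value was not tested.

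**Figure D2:**
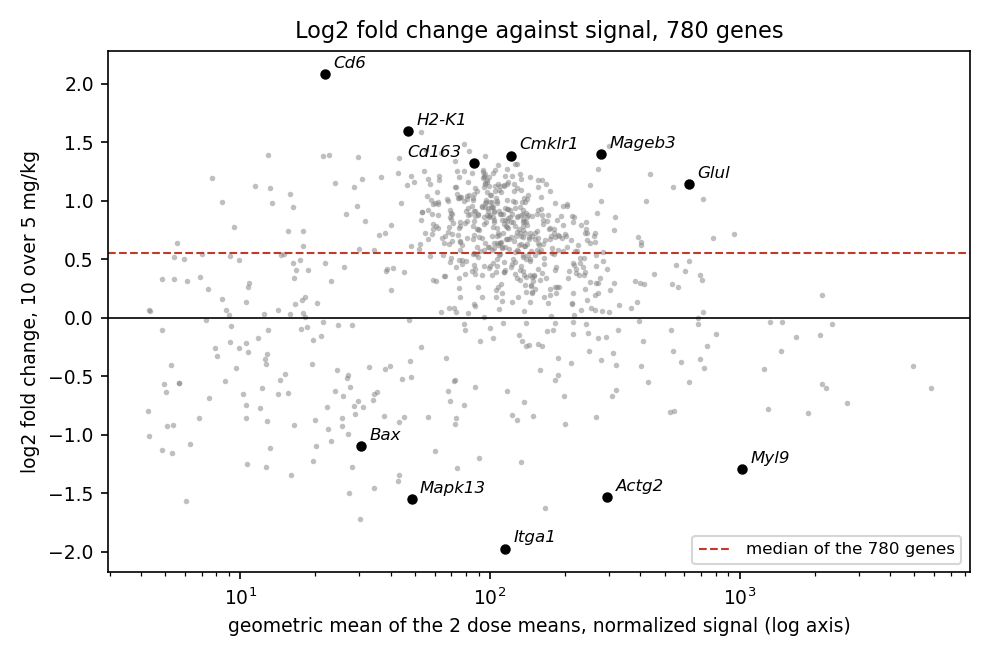
Log2 fold change of 10 over 5 mg/kg (vertical axis) against the geometric mean of the mean signals at the 2 doses (horizontal log axis), 1 point per gene, with 11 genes of the text in black. The dashed line is the panel median of 0.56; genes at both ends of the signal range lie mostly under it, and Itga1, at -1.97, is the lowest point.

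No single gene passed the test between the doses. limma called 0 of 780 genes (0%) at a Benjamini-Hochberg adjusted p under 0.05, and the smallest adjusted p, shared by 515 genes, was 0.654. At an unadjusted p under 0.05 there were 18 genes (2.31%), 10 of them higher (1.28%) and 8 lower (1.03%) at 10 mg/kg. The 10 were Cd6, Cmklr1, Cd163, Cd34, Cdh5, Srebf1, Glul, Hsd11b1, Nck1 and Lrrc32, and the 8 were Itga1, Actg2, Myl9, Brca1, Fanci, Chek2, Alk and Itpr1. Hsd11b1, Nck1, Lrrc32, Chek2 and Itpr1 are named here after their values were seen. On the recovered counts, edgeR called 0 genes and DESeq2 called 0, and their unadjusted p was under 0.05 for 0 higher and 15 lower genes with edgeR and for 0 higher and 18 lower with DESeq2. After median-ratio rescaling limma gave 0 higher and 20 lower at that level. The median 95% interval of a log2 fold change reached 1.42 to either side, a 2.68-fold difference. Weighting each library by its estimated quality gave 388 calls (329 higher, 59 lower), in an estimate that did not converge and put a weight of 47.6 on replicate 3 at 10 mg/kg against 0.276 and 0.333 on replicates 1 and 2.

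The genes described next were taken from those whose 3 signals at 10 mg/kg all lay on one side of the 3 at 5 mg/kg. On the deposited scale 83 genes (10.6%) had no overlap, 68 higher (8.72%) and 15 lower (1.92%). Leaving out 1 of the 6 libraries gave 98 to 493 such genes, a count that can only stay or rise when fewer mice have to separate. There were 493 without replicate 1 at 10 mg/kg, 191 without replicate 2 at 5 mg/kg and 193 without replicate 3 at 5 mg/kg. After each library's shift was subtracted there were 94 (12.1%), now 53 higher (6.79%) and 41 lower (5.26%). If dose made no difference, a gene would separate 3 mice from 3 with probability 0.10. The shares of 10.6% and 12.1% are near that. On both scales 35 were higher and 14 lower, and of these 35 and 8 had a mean signal above the mean background at 1 dose or both. Of the higher genes, the 12 farthest above the panel median are described below, with all 8 of the lower ones. Each of the 20 had the same adjusted p of 0.654 by limma, so none was called, and the values describe these 6 mice. Among all genes, 3 lay more than 1 above the panel median on the log2 scale and 105 more than 1 below it. The 95% interval, unadjusted for the number of genes, lay wholly above the panel median for 0 genes and wholly below it for 47. The interval of each of the 12 higher genes therefore includes the panel median. Among the 8 lower genes that of Wrap53 includes it too. The SE and p of a gene refer to its difference from 0.

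**Figure D3:**
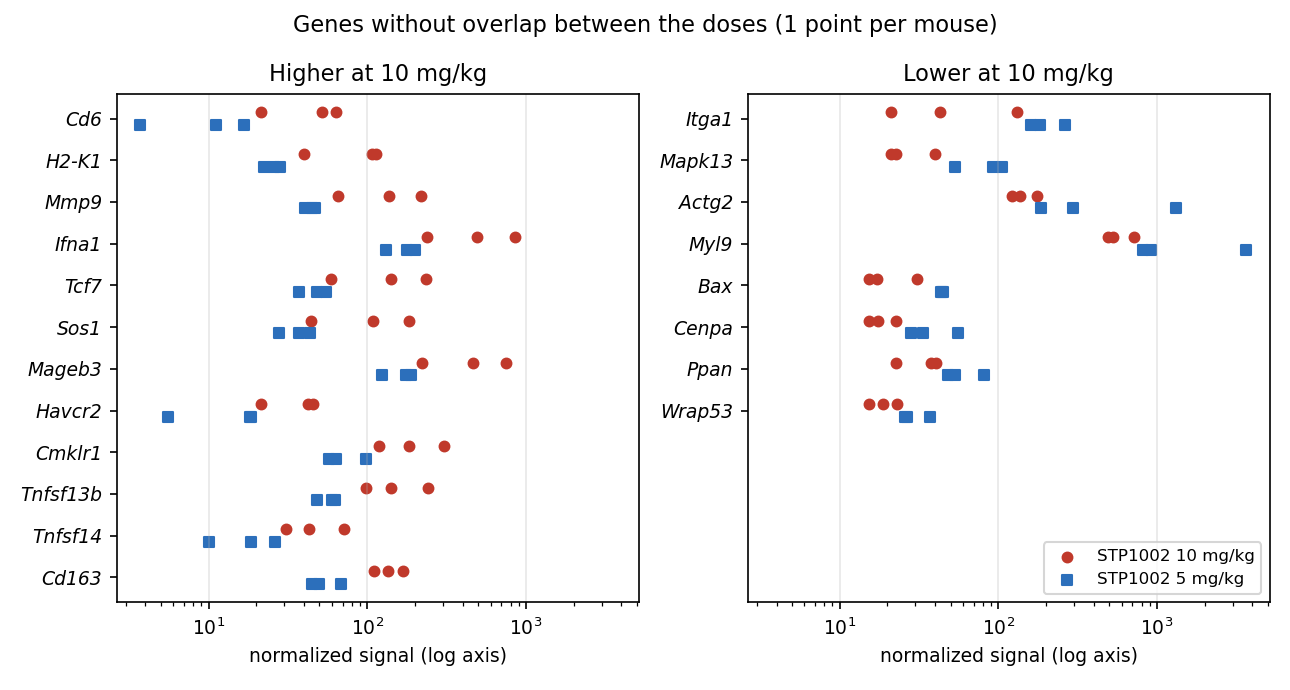
Normalized signal (horizontal log axis) of the 12 higher and 8 lower genes without overlap on either scale, 1 point per mouse, with 10 mg/kg (red circles) above 5 mg/kg (blue squares) in each row. In every row the colours separate; the widest spread within a dose, by ratio, is that of the smooth muscle gene Actg2 at 5 mg/kg, 186 to 1315.

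Markers of macrophages stood among the higher genes. Cd163, a scavenger receptor of tissue macrophages, had signals of 110, 167 and 134 at 10 mg/kg, against 49.9, 68.4 and 44.6 at 5 mg/kg. Its log2 fold change was 1.32 ± 0.54 (SE), 0.76 above the panel median of 0.56. The control range was 86.2 to 109.6. On the deposited scale all 3 mice at 5 mg/kg lay under it and all 3 at 10 mg/kg above it, replicate 1 only just. Cmklr1, the chemerin receptor that macrophages and other leukocytes carry, had 118, 303 and 183 at 10 mg/kg against 57.3, 98.4 and 63.2 at 5 mg/kg. For Cmklr1 the log2 fold change of 1.39 ± 0.49 was 0.83 above the panel median. On the same scale the control range of Cmklr1, 78.1 to 113.6, lay under all mice at 10 mg/kg and above 2 of the 3 at 5 mg/kg. The part of the panel shift in these comparisons with the controls was not tested. Mmp9, a matrix-cutting protease of neutrophils and macrophages, had 65.7, 217 and 137 at 10 mg/kg, against 40.7, 46.7 and 44.6 at 5 mg/kg, 0.93 above the panel median at a log2 fold change of 1.49 ± 0.71.

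The myeloid list, of which Cd163 is a member and Cmklr1 and Mmp9 are not, had genes on both sides of the panel median. Of its 23 genes, 20 had a log2 fold change above 0, but 13 were above and 10 below the panel median, and the list median was 0.12 above the median of all genes. The log2 fold changes of Cd68, a lysosomal protein of macrophages, and Csf1r, the receptor for their growth factor, were 0.68 and 0.83, which is 0.12 and 0.27 above the panel median. Itgb2, the common integrin chain of leukocytes, was at -0.52, 1.08 below it, and Ncf1, a subunit of the phagocyte oxidase, at 0.13, 0.43 below it. Itgam was low at both doses.

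T cell genes gave the largest value of all. Cd6, a receptor on T cells, had signals of 21.4, 51.8 and 63.4 at 10 mg/kg, against 11.1, 16.7 and 3.72 at 5 mg/kg. It was above background in 3 of 3 mice at 10 mg/kg and in 0 of 3 at 5 mg/kg, on counts of 1 to 27, so its fold depends on the floor. The fitted log2 fold change was 2.08 ± 0.91, 1.52 above the panel median. It was 0.34 when every value under background was raised to a common floor, where the panel median was 0.48. Havcr2, the inhibitory receptor TIM-3, had 21.4, 42.2 and 45.6 at 10 mg/kg, against 5.55, 18.3 and 18.6, all under background, at 5 mg/kg. Its fitted log2 fold change of 1.40 was 0.84 above the panel median, but with the common floor it was 0.081, below the panel.

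Tcf7, the transcription factor TCF1 of naive and memory T cells and a partner of beta-catenin, had 59.0, 236 and 142 at 10 mg/kg against 37.0, 55.0 and 48.4 at 5 mg/kg. This gave a log2 fold change of 1.42 ± 0.79, 0.87 above the panel median. Across the T and NK cell list, 38 of 44 genes were above 0, and 31 were above and 13 below the panel median, with a list median 0.26 above it. No member was called. Its members ran from a log2 fold change of -1.16 to 2.08, and both examples given next are from above the panel median. Cd3e, a chain of the T cell receptor complex, had a log2 fold change of 1.22 and Cd8a, the co-receptor of cytotoxic T cells, 0.91, which is 0.66 and 0.35 above the panel median. Klrk1, the NK receptor NKG2D, was low at both doses. The summed signal of the list was 2898, 7779 and 4844 at 10 mg/kg, against 3280, 3187 and 2727 at 5 mg/kg. Replicate 2 at 10 mg/kg, the library with the highest panel shift, was again the highest and replicate 1 overlapped the 5 mg/kg mice; the part of the shift in this sum was not tested.

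Ligands and antigen presentation made up most of the remaining higher genes. Tnfsf13b, the B cell survival factor BAFF, had 97.8, 240 and 142 at 10 mg/kg, against 62.9, 60.0 and 48.4 at 5 mg/kg, with a log2 fold change of 1.38 (0.82 above the panel median). Tnfsf14, the ligand LIGHT, had 30.8, 71.0 and 43.1 at 10 mg/kg, against 18.5, 10.0 and 26.0 at 5 mg/kg, where it was above background in 1 of 3 mice. It was 0.82 above the panel median, at 1.37, but with the common floor it was at 0.30, below the panel. H2-K1, a classical MHC class I chain, had 40.2, 113 and 106 at 10 mg/kg, against 25.9, 28.3 and 22.3 at 5 mg/kg. At 1.59 ± 0.76 it was 1.04 above the panel median, and at 0.96 with the common floor.

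The MHC class I list as a whole lay at the panel median, 0.04 below it, with 6 members above and 7 below. B2m, the light chain that all class I molecules share, had a log2 fold change of -0.73, 1.28 below the panel median and opposite in sign to H2-K1. Sos1, the exchange factor that loads RAS, had 44.2, 182 and 109 at 10 mg/kg, against 27.7, 43.3 and 37.2 at 5 mg/kg, at 1.41, which is 0.85 above the panel median. The MAPK and RAS list around it was 0.12 below.

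An interferon and a germ line gene completed the 12 higher genes. Ifna1, a type I interferon, had 238, 859 and 494 at 10 mg/kg, against 131, 200 and 179 at 5 mg/kg, at a log2 fold change of 1.47 (0.92 above the panel median). Mageb3, of the MAGE family of germ line genes, had 221, 744 and 464 at 10 mg/kg, against 124, 190 and 175 at 5 mg/kg, at 1.40 (0.84 above the panel median). A list of 8 germ line, pluripotency and other tissue genes, drawn up after the values were seen, summed to 714, 2801 and 1544 at 10 mg/kg, against 562, 745 and 789 at 5 mg/kg. Its median log2 fold change was 1.01, which is 0.45 above the panel median, and Nanog and Sox2, factors of embryonic stem cells, were 0.46 and 0.49 above it, at 1.02 and 1.05. In the 10 mg/kg mice the sum was highest in replicate 2 and lowest in replicate 1, the order of the panel shift. Of the 12 higher genes, 10 were highest in replicate 2 and 12 lowest in replicate 1 of the 10 mg/kg mice. The part of these libraries' shift in the higher genes was not tested.

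Interferon response genes were close above the panel. Of 16 measured, 14 had a log2 fold change above 0 and 12 were above the panel median, with a list median 0.23 above it and 0 called. Socs1, the feedback inhibitor of cytokine signalling, had 41.5, 161 and 83.7 at 10 mg/kg, against 29.6, 43.3 and 14.9 at 5 mg/kg, so that the doses overlapped. The difference on the log2 scale was 1.59 ± 0.89, 1.03 above the panel median. Oas2, which senses double-stranded RNA, was low at both doses.

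Genes of the vessel wall lay above the panel median as a list. Cd34, a surface protein of endothelial and progenitor cells, had signals of 139, 328 and 155 at 10 mg/kg, against 61.0, 108 and 81.9 at 5 mg/kg. Its log2 fold change was 1.23 ± 0.54, 0.67 above the panel median. Cdh5, the cadherin of endothelial junctions, had 159, 347 and 193 at 10 mg/kg, against 77.7, 115 and 138 at 5 mg/kg, with a log2 fold change of 1.03 ± 0.46 that was 0.47 above the panel median. For both genes every mouse at 10 mg/kg was above every mouse at 5 mg/kg on the deposited scale. After each library's shift was subtracted this still held for Cdh5 but not for Cd34. Of the 13 endothelial genes 10 were above 0, 9 above and 4 below the panel median, and the list median was 0.20 above it. Kdr, the VEGF receptor of endothelium, was at -0.06, 0.62 below the panel median. Pdgfrb, a receptor of pericytes and fibroblasts, had 84.4, 234 and 127 at 10 mg/kg, against 53.6, 56.7 and 67.0 at 5 mg/kg (log2 fold change 1.19, 0.64 above the panel median).

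Among the 8 lower genes were an integrin and both measured smooth muscle genes. Itga1, the alpha chain of a collagen-binding integrin found on smooth muscle, endothelium and some resident T cells, had signals of 131, 21.1 and 43.1 at 10 mg/kg, against 183, 263 and 160 at 5 mg/kg. The control range, 70.1 to 255.0, covered replicate 1 at 10 mg/kg and 2 of the mice at 5 mg/kg. Replicate 2 at 10 mg/kg, the library with the highest panel shift, had the lowest Itga1. At 10 mg/kg Itga1 was above background in 2 of 3 mice, with replicate 2 under its threshold of 34.0 and replicate 3 just over its threshold of 40.0. The log2 fold change was -1.97 ± 0.69, with the smallest p of the 780, and it lay 2.53 below the panel median. With the common floor it was -1.69. Leaving out 1 of the 6 libraries gave log2 fold changes between -2.67 and -1.38.

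Actg2, the gamma actin of visceral smooth muscle, had 122, 177 and 137 at 10 mg/kg, against 298, 1315 and 186 at 5 mg/kg. The control range of Actg2 was 140 to 434.3. Myl9, the regulatory light chain of smooth muscle myosin, had 715, 529 and 492 at 10 mg/kg, against 923, 3646 and 822 at 5 mg/kg, with controls at 453 to 1363. Replicate 2 at 5 mg/kg exceeded every other mouse in both genes. Log2 fold changes were -1.54 ± 0.60 for Actg2 and -1.30 ± 0.58 for Myl9, which is 2.09 and 1.85 below the panel median. The smooth muscle list holds only these 2 genes, so its median, 1.97 below the panel median, restates their values. Without replicate 2 at 5 mg/kg the log2 fold changes were -0.71 and -0.61.

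The stretch of 250 bases before the start of Myl9 and of Itga1 is given, as RefSeq records it on GRCm38.p6, since these are 2 of the 3 genes among the 8 lower ones with an unadjusted limma p under 0.05. The third, Actg2, is named only. Capitals mark a CArG box, the motif that serum response factor binds in many smooth muscle genes, searched on both strands with no overlap with another motif counted.
Myl9, chr2:156775214-156775463, plus strand: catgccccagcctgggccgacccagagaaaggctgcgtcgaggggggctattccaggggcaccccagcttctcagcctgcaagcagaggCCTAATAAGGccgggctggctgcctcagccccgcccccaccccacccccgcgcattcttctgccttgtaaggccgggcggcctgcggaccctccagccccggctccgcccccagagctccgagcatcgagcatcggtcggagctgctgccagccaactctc
Itga1, chr13:115101965-115102214, minus strand: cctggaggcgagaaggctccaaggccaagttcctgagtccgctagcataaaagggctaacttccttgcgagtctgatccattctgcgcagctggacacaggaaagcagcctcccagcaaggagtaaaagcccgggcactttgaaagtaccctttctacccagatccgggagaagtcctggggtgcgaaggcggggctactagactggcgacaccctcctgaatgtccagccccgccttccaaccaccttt
Myl9 held 1 such box, whose first base is 161 bases before the start, and no box was found in this window of Itga1. Of 32851 promoters of this length listed by RefSeq, 482 (1.47%) held a box, as did 9 of 701 promoters (1.28%) of the 577 panel genes listed. The match is a description of the sequence, and nothing on binding was measured.

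A single mouse at 5 mg/kg had the highest muscle sum and the lowest epithelial sum. Actg2 and Myl9 together summed to 837, 706 and 629 at 10 mg/kg, against 1220, 4961 and 1008 at 5 mg/kg. The 12 epithelial genes summed to 7803, 4746 and 6847 at 10 mg/kg, against 10392, 2579 and 15644 at 5 mg/kg, so the mouse with the most muscle signal had the least epithelial signal. Sfn, an epithelial 14-3-3 protein, made up a large part of these sums, with 5481, 1792 and 4023 at 10 mg/kg against 7458, 1169 and 10740 at 5 mg/kg. By the median log2 deviation of the epithelial list, replicate 2 at 5 mg/kg was at -0.43, where the panel was at -0.22. Replicate 2 at 10 mg/kg was at 0.74, where the panel was at 0.92, so by this measure the mouse did not stand apart. The part of wall composition in the lower muscle genes was not tested. The epithelial list as a whole was 0.17 below the panel median, with 9 of 12 genes above 0 and 4 above the panel median. Epcam had a log2 fold change of 0.22 and Cdh1, E-cadherin, one of 0.27, which is 0.34 and 0.28 below the panel median.

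**Figure D4:**
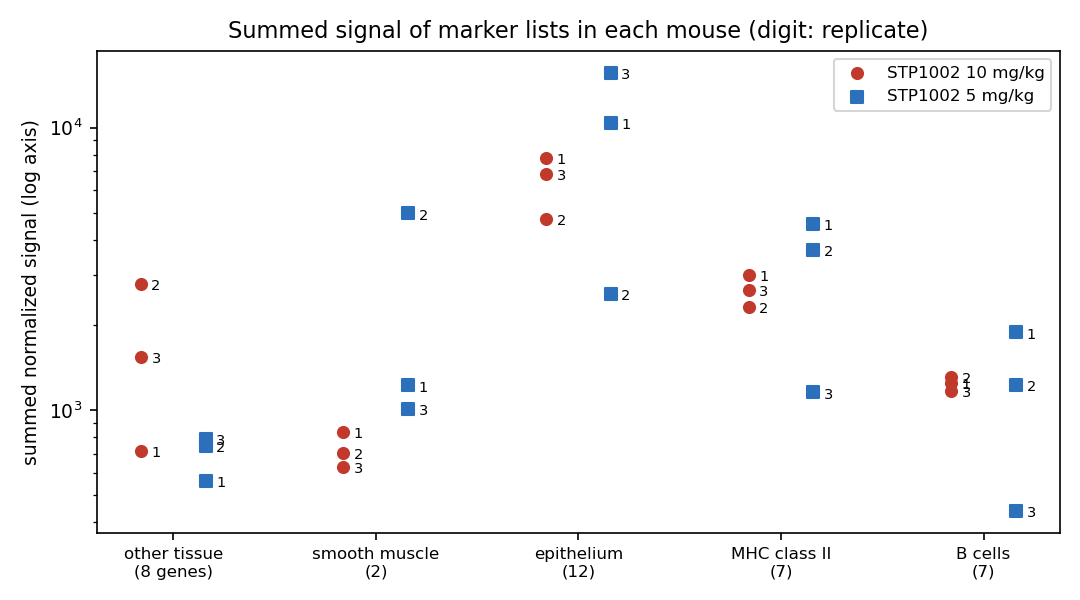
Summed normalized signal (vertical log axis) of 5 gene lists in each mouse, with 10 mg/kg (red circles) left of 5 mg/kg (blue squares) and the replicate number beside each point. Replicate 2 at 10 mg/kg leads the 8 other tissue genes at 2801, replicate 2 at 5 mg/kg leads smooth muscle at 4961, and replicate 3 at 5 mg/kg is lowest in MHC class II at 1153 and in B cells at 439.

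The other 5 lower genes were near background, as Itga1 was in replicates 2 and 3 at 10 mg/kg. Mapk13, the p38 delta kinase of epithelia, had 40.2, 21.1 and 22.8 at 10 mg/kg, where 1 of 3 mice was above background, and 105, 53.4 and 93.0 at 5 mg/kg. Its log2 fold change of -1.55 ± 0.80 was 2.11 below the panel median, and it was -0.997 with the common floor. Bax, which opens mitochondria in apoptosis, had 30.8, 17.3 and 15.2 at 10 mg/kg, against 44.4, 43.3 and 44.6 at 5 mg/kg. The 3 mice at 5 mg/kg were close together and above all at 10 mg/kg, where 1 of 3 was above background. At -1.09 ± 0.68 Bax was 1.65 below the panel median, but with values under background raised to a common floor its log2 fold change was -0.13.

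Cenpa, the histone variant of centromeres, had 17.4, 15.4 and 22.8 at 10 mg/kg, against 55.5, 28.3 and 33.5 at 5 mg/kg. Ppan, a ribosome assembly factor, had 37.5, 40.3 and 22.8 at 10 mg/kg, against 81.3, 53.4 and 48.4 at 5 mg/kg. For Wrap53, a telomerase Cajal body protein, signals were 18.8, 23.02 and 15.2 at 10 mg/kg, against 25.9, 26.7 and 37.2 at 5 mg/kg. They were 1.56, 1.41 and 1.19 below the panel median, at log2 fold changes of -0.998, -0.85 and -0.63. With the common floor the log2 fold changes were -0.15 for Cenpa, -0.56 for Ppan and 0 for Wrap53. Brca1, Fanci, Chek2 and Alk had mean signals under background at both doses, and they are named as low.

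Of the 12 measured genes of the Wnt pathway and crypt, 8 had a log2 fold change above 0 and 4 below, and 7 lay above and 5 below the panel median, 0.04 above it in the median. None was called by limma (lowest adjusted p = 0.654). Among the receptors, Fzd1 had 61.6, 163 and 109 at 10 mg/kg against 40.7, 56.7 and 44.6 at 5 mg/kg, without overlap. For Fzd1 the log2 fold change of 1.12 ± 0.73 was 0.56 above the panel median. Fzd7 and Fzd8 were at 0.62 and 0.73, which is 0.06 and 0.17 above it, with overlapping doses. Wnt5a, a ligand that mostly acts without beta-catenin, had 60.3, 219 and 152 at 10 mg/kg, against 46.2, 93.4 and 55.8 at 5 mg/kg (log2 fold change 1.01, 0.45 above the panel median).

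The measured genes of the destruction complex and its substrate lay under the panel median, and the doses overlapped in 2 of the 3. Apc, the scaffold lost in intestinal tumours, had 214, 132 and 122 at 10 mg/kg, against 314, 160 and 279 at 5 mg/kg. This gave a log2 fold change of -0.67 ± 0.46, 1.23 below the panel median. Ctnnb1, beta-catenin itself, had 127, 209 and 98.9 at 10 mg/kg, against 107, 197 and 201 at 5 mg/kg, at -0.23 ± 0.49 (0.79 below the panel median). Gsk3b, the kinase of the complex, had 154, 173 and 139 at 10 mg/kg, against 129, 137 and 96.7 at 5 mg/kg, with no overlap on the deposited scale. Its log2 fold change of 0.37 ± 0.44 was 0.19 below the panel median, so its direction depends on the scaling, and after median-ratio rescaling it was -0.20.

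Targets of the pathway and proliferation did not move one way. Ccnd1, cyclin D1, had 501, 240 and 365 at 10 mg/kg, against 821, 237 and 1209 at 5 mg/kg. The difference on the log2 scale was -0.81 ± 0.66, 1.36 below the panel median. The lowest Ccnd1 value at either dose came from replicate 2, which at 5 mg/kg was the mouse with the least summed epithelial signal. Myc had 107, 247 and 142 at 10 mg/kg, against 135, 88.4 and 85.6 at 5 mg/kg, at 0.62 ± 0.47 (0.07 above the panel median), but at -0.0060 with edgeR and -0.011 with DESeq2. Mki67, the antigen of dividing cells, was at 0.58 ± 0.89, 0.03 above the panel median, with signals of 26.8 to 49.9 at 10 mg/kg and 14.9 to 31.4 at 5 mg/kg that overlapped near background, and it too turned with edgeR, to -0.092, and DESeq2, to -0.080. Cd44 was low at both doses. The 44 cell cycle genes lay 0.04 above the panel median, with 25 above and 19 below it. Rb1, which holds cells before S phase, was at -1.35, 1.91 below it, and Cdc20, which drives exit from mitosis, at 1.27, 0.71 above it.

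Signals of B cells and of MHC class II varied widely among mice of 1 dose. H2-Ab1, a class II chain of antigen-presenting cells, had 678, 173 and 304 at 10 mg/kg, against 1309, 834 and 171 at 5 mg/kg. Its log2 fold change was -0.80 ± 0.64, 1.35 below the panel median. The 7 class II genes summed to 3013, 2321 and 2662 at 10 mg/kg, against 4564, 3689 and 1153 at 5 mg/kg, where replicate 3 was the lowest of the 6. Control mice summed to 631 to 1171. Cd22, a B cell receptor that damps signalling, had 564, 261 and 406 at 10 mg/kg, against 727, 395 and 55.8 at 5 mg/kg. This gave a log2 fold change of 0.63 ± 0.81, 0.07 above the panel median, and without replicate 3 at 5 mg/kg it was -0.45, as it was -0.39 with edgeR and -0.40 with DESeq2. The 7 B cell genes summed to 1246, 1310 and 1166 at 10 mg/kg, against 1880, 1227 and 439 at 5 mg/kg, with controls at 113 to 497. Their list median was 0.27 below the panel median, that of class II 0.35 below, and neither list had a called gene. When 1 library was left out, the list median minus the panel median ranged from -1.07 to 0.21 for B cells and from -1.07 to 0.079 for class II. The direction of both lists therefore depended on single mice. Xbp1, a factor of plasma and other secretory cells, had 399, 198 and 160 at 10 mg/kg, against 545, 167 and 502 at 5 mg/kg, at a log2 fold change of -0.62 that was 1.17 below the panel median.

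Metabolic genes were split. Srebf1, the master regulator of lipid synthesis, had 249, 201 and 122 at 10 mg/kg against 61.0, 90.02 and 108 at 5 mg/kg. At 1.11 ± 0.48 it was 0.56 above the panel median, and among the mice at 10 mg/kg it was highest in replicate 1. Glul, glutamine synthetase, had 1710, 620 and 517 at 10 mg/kg, against 296, 252 and 685 at 5 mg/kg, so that replicate 3 at 5 mg/kg overlapped the higher dose. The difference on the log2 scale was 1.14 ± 0.51, 0.58 above the panel median. Slc1a5, the glutamine carrier, had 367, 290 and 195 at 10 mg/kg, against 185, 160 and 190 at 5 mg/kg, with a log2 fold change of 0.63 ± 0.41 that was 0.07 above the panel median.

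Genes of sugar use lay lower on the panel. Of 11 glycolysis genes 6 were above 0 but 2 above the panel median, and the list was 0.36 below it. Hk2, a hexokinase, had 230, 19.2 and 53.2 at 10 mg/kg, against 172, 30.0 and 290 at 5 mg/kg, lowest in replicate 2 of either dose. Tpi1, triose phosphate isomerase, had 100, 255 and 144 at 10 mg/kg, against 74.0, 71.7 and 63.2 at 5 mg/kg, without overlap. Their log2 fold changes were -0.87 and 1.14, which is 1.43 below and 0.59 above the panel median. Hmox1, heme oxygenase, had 114, 382 and 243 at 10 mg/kg against 77.7, 112 and 104 at 5 mg/kg (log2 fold change 1.18, 0.62 above), while the hypoxia list it belongs to was 0.21 below the panel median.

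Kinase and apoptosis genes had members on both sides. Akt1, the survival kinase, had 194, 76.7 and 76.1 at 10 mg/kg, against 200, 153 and 216 at 5 mg/kg. Its log2 fold change was -0.84 ± 0.49, 1.40 below the panel median. Akt2, its insulin-signalling relative, had 387, 698 and 431 at 10 mg/kg against 211, 357 and 398 at 5 mg/kg, at 0.65 ± 0.42 (0.09 above the panel median). The doses overlapped in both genes. Of the 11 apoptosis genes, 1 lay above and 10 below the panel median, at a list median 0.42 below it. Besides Bax these included Bad, another promoter of cell death, at -0.83 (1.39 below), and Birc3, an inhibitor of it, at -0.93 (1.48 below). Fasl, a death ligand of T cells, was at 0.79, 0.24 above the panel median.

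The remaining lists stayed within 0.20 of the panel median, and no list of the 26 held a called gene. Notch and Hedgehog genes were 0.15 above it, with Maml2, a Notch coactivator, at 1.34 (0.78 above). Inflammation genes were 0.07 above, with the chemokine Ccl4 at 1.26 (0.71 above) and Slpi, a protease inhibitor of mucosal surfaces, at -1.14 (1.70 below). Slpi had 65.7, 21.1 and 35.5 at 10 mg/kg, against 44.4, 112 and 112 at 5 mg/kg, so that the doses overlapped. Fos, an immediate early factor, had 71.0, 215 and 165 at 10 mg/kg against 48.1, 55.0 and 74.4 at 5 mg/kg, overlapping in 1 mouse of each dose, at a log2 fold change of 1.21 ± 0.58 (0.65 above the panel median).

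Lists of growth signalling, matrix and chromatin were at or under the panel median. DNA repair was 0.12 below it, PI3K signalling 0.14, fibroblast and matrix 0.14, chromatin 0.15, TGF-beta and BMP 0.16 and plasma cells 0.12. Receptor tyrosine kinases lay 0.01 below and mitochondrial and lipid metabolism 0.04 below, whereas amino acid metabolism was 0.07 above. Within them Snai1 and Snai2, factors of epithelial to mesenchymal change, were at 1.19 and 1.21 (0.63 and 0.65 above the panel median). The demethylases Kdm1a and Kdm5a were at 1.09 and 0.76, which is 0.54 and 0.21 above it, and the collagen crosslinker Lox at 0.99 (0.43 above).

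**Figure D5:**
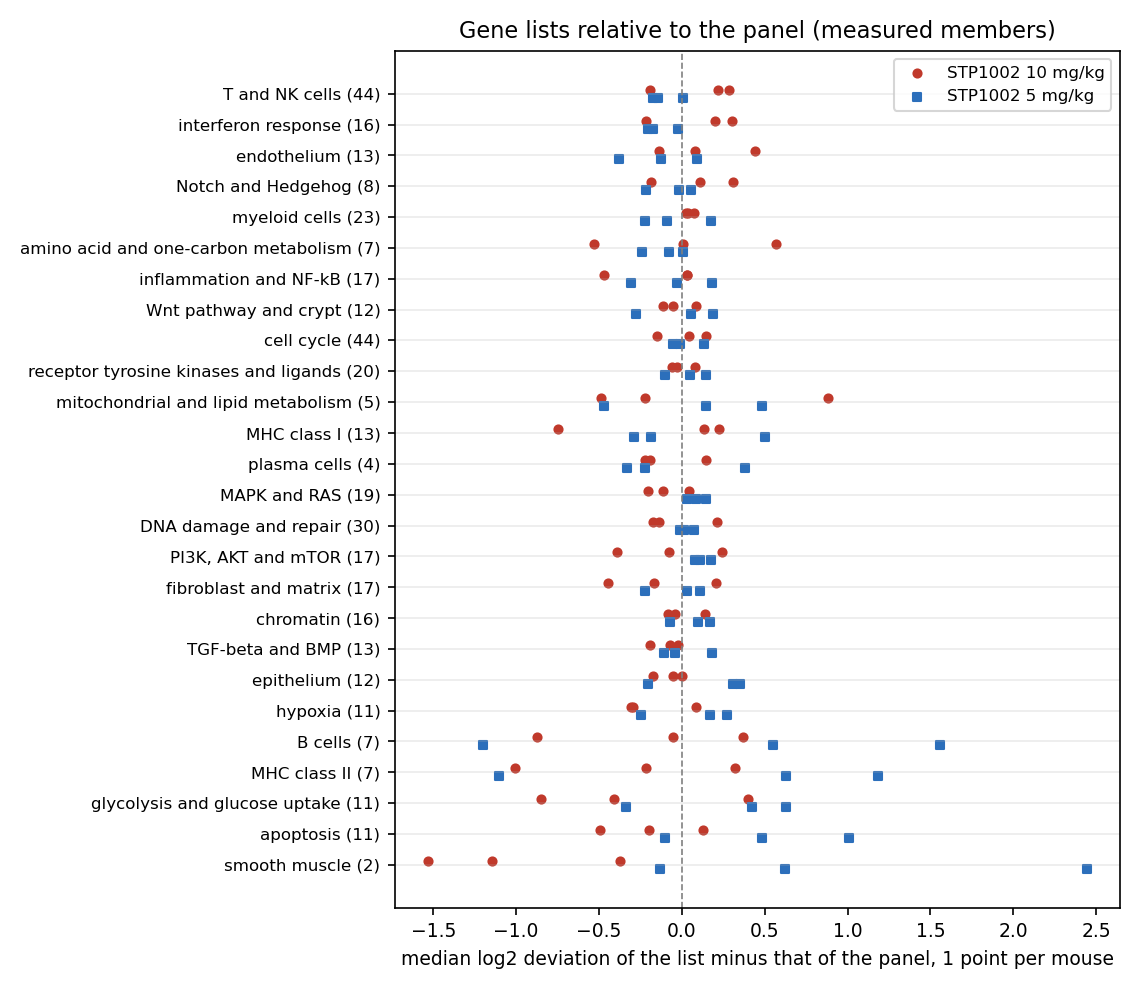
Median log2 deviation of each gene list minus that of the panel in the same library (horizontal axis), 1 point per mouse, with 10 mg/kg (red circles) above 5 mg/kg (blue squares) and the number of measured genes in brackets. Most lists overlap around 0. The 2 smooth muscle genes, Actg2 and Myl9, lie farthest to the right in 1 mouse at 5 mg/kg. Their list separates the doses because each of them does, as genes picked for having no overlap.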

How the data were processed

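Gene values are a normalized signal that the authors deposited on a linear scale; the values show whole reporter counts times 1 factor per library, with a floor of 1 and whole counts within a tolerance of 0.0051. The software, background rule and reference genes of that normalization are not given in the sources used here. RNA with an integrity number above 7.0 was used, per the labels' protocols. Symbols were matched to RefSeq for names only (775 by symbol, 2 by synonym, 3 unmatched).

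limma 3.58.1 in R 4.3.3 was fitted to log2(signal + 1) of all 780 genes in the 12 libraries (lmFit on 4 group means, eBayes with a trend, 16.8 total degrees of freedom), with no filter, two-sided tests and Benjamini-Hochberg adjusted p-values over all 780 genes. edgeR 4.0.16 and DESeq2 1.42.0 were run on the recovered counts. The steps were tested on simulated data. Named genes are those without overlap on both scales (up to 12 higher and 12 lower), the 5 smallest p-values, the Wnt genes and the 2 members of each list with the smallest p; genes under background at both doses are named as low, and 1 gene is not reported here. Other list members were added as examples after their values were seen. The comparison, members and lists were chosen with earlier results of these data known. The pseudocount shrinks the log2 fold changes of low genes. Values near background also rest on few counts, so the size of a difference there is uncertain in either direction. With the common floor, Cd6 went from 2.08 to 0.34 and Wrap53 from -0.63 to 0. Alternatives changed the pseudocount, floor, filter, scaling, libraries, weights and test.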

Additional observations from a re-analysis of the deposited data

How the results depend on the processing

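The number of genes called was 0 with limma under every alternative except library weights: 388 with weights by residual maximum likelihood, in an estimate that did not converge, and 105 with gene-by-gene weights, added after seeing the data. The cause was not tested. Unadjusted counts ranged from 3, without replicate 2 at 10 mg/kg, to 126, without the 2 deepest libraries, among the unweighted limma fits. Each gene's deviation from its group mean was correlated between the 10 and 5 mg/kg libraries of the same number. These correlations were 0.463, 0.250 and 0.0176 for replicates 1, 2 and 3. They are all positive but uneven, and do not settle whether the numbers pair the mice. Replicate 1 had the lowest median signal of each group: 40.5 in DMSO, 65.6 at 5 mg/kg, 77.0 at 10 mg/kg and 41.9 with G007-LK. A limma fit blocked on replicate still gave 0 calls. Its unadjusted p was under 0.05 for 115 genes, against 18 in the main fit. The source of this pattern by number was not tested. The panel median of 0.56 was -0.0037 after median-ratio rescaling, 0.066 after quantile normalization, 0.0097 with edgeR and 0.0032 with DESeq2, which remove such a shift by construction. In settings added after seeing the data it was -0.013 (median-ratio on the 6 libraries alone), -0.030 (median-ratio without replicate 2 at 10 mg/kg) and 0.0062 (edgeR on the 6 alone). Leaving out 1 library gave 0.259 to 0.838. Genes without overlap numbered 98 to 493 when 1 library was left out. There were 493 without replicate 1 at 10 mg/kg, 191 without replicate 2 at 5 mg/kg and 193 without replicate 3 at 5 mg/kg. Leaving out a library can only keep or raise this count, since fewer mice have to separate. The part of single mice in the size of the rise was not tested. Rescaling moved the split of genes without overlap from 68 higher and 15 lower to 50 and 35 (median ratios) or 44 and 22 (quantile).

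List medians minus the panel median moved by more than the spread of mice in 21 of 546 recomputed values. These were inflammation at -0.33 with the common floor; DNA repair at 0.20 with the filter, 0.14 with array weights and 0.069 with gene-by-gene weights; epithelium at 0.17 and receptor tyrosine kinases at 0.094 with quantile normalization; and cell cycle at 0.20 and fibroblast and matrix at -0.52 with array weights. With median ratios and without replicate 2 at 10 mg/kg, TGF-beta was at 0.081 and hypoxia at 0.13. Leaving out 1 library gave DNA repair -0.18 to 0.079, T and NK cells 0.16 to 0.47, amino acid metabolism -0.34 to 0.33, TGF-beta -0.15 to 0.066, hypoxia -0.39 to 0.27, MAPK -0.23 to -0.00088 and Wnt -0.22 to 0.074. Causes were not tested.

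Of 71 named genes, 32 of 1485 recomputed log2 fold changes turned. With the common floor Wrap53, Brca1, Cd44, Fanci, Ccne2, Idh1 and Alk were at 0. Gsk3b was at -0.20 (median-ratio), -0.31 (quantile), -0.17 (edgeR), -0.17 (DESeq2), -0.21 (median-ratio, 6 alone), -0.00022 (median-ratio without replicate 2 at 10 mg/kg) and -0.17 (edgeR, 6 alone). Values by edgeR, DESeq2 and edgeR on the 6 alone were -0.0060, -0.011 and -0.0013 for Myc, -0.092, -0.080 and -0.084 for Mki67, -0.39, -0.40 and -0.37 for Cd22, and -0.23, -0.25 and -0.22 for H2-Ob. Median ratios without replicate 2 at 10 mg/kg put Myc at -0.0011 and Fzd8 at -0.0022. Leaving out 1 library gave Ctnnb1 -0.53 to 0.012 (the highest without replicate 3 at 10 mg/kg), Cd22 -0.45 to 1.39 and H2-Ob -0.081 to 1.37 (the lowest of both without replicate 3 at 5 mg/kg). The number of mice and counts near background at low signal limit the precision.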
